A study of Schizosaccharomyces pombe with 10 samples.

Results

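The transcripts described here are 7 regulators of entry into and exit from mitosis in the fission yeast Schizosaccharomyces pombe, chosen by gene identifier from the 7017 genes of one table of read counts. They are cdc2 (SPBC11B10.09), cdc13 (SPBC582.03), cdc25 (SPAC24H6.05), wee1 (SPCC18B5.03), cdr1 (SPAC644.06c), plo1 (SPAC23C11.16) and slp1 (SPAC821.08c), and all 7 passed the filters on low counts. PolyA-enriched RNA was sequenced from exponential cultures in minimal medium, and the study asked how the transcriptome depends on the phosphorylation state of Atf1, a bZIP transcription factor, before and after hydrogen peroxide. Sty1 is the stress-activated MAP kinase that phosphorylates Atf1.

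The 10 libraries came from 5 strains, each with 1 library from cells given 1 mM H2O2 for 15 min and 1 from untreated cells. STY carried a sty1 deletion with wild-type Atf1, HA a sty1 deletion with HA-tagged Atf1, 10D a sty1 deletion with the HA-tagged phosphomimicking Atf1.10D, and 10M a sty1 deletion with the HA-tagged unphosphorylatable Atf1.10M. WT was the wild type, the strain of the 5 without the labelled deletion. No strain was replicated, so differences within a strain had no replicate check, and every test took the spread between strains as its error.

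Library totals ran from 9178795 to 26503471 counts, with the 4 deepest libraries in 10D and 10M. A count of 0 would have allowed up to 3 counts, or 0.113 to 0.327 CPM. The sty1 transcript was at 8.92 to 9.11 CPM in STY and at 266.7 to 305.2 CPM in WT. In HA, 10D and 10M, labelled as deletions too, it was at 101.4 to 129.9 CPM, above STY and below WT. Which part of the gene these reads came from was not examined, so counts alone cannot show whether the label is wrong. These strains are named by label throughout. The atf1 transcript was at 357.9 to 743.9 CPM in the strains with a tagged Atf1, at 30.4 and 69.3 CPM in treated and untreated STY, and at 642.6 and 143.1 CPM in treated and untreated WT.

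In fission yeast, mitosis begins when the cyclin-dependent kinase Cdc2, bound to the B-type cyclin Cdc13, loses an inhibitory phosphate on a tyrosine. The kinase Wee1 places that phosphate and the phosphatase Cdc25 removes it. The kinase Cdr1 holds Wee1 in check as cells grow, and the Polo kinase Plo1 acts in spindle formation, in placing the division ring and in feedback onto Cdc25 and Wee1. Slp1, the Cdc20 homologue, activates the anaphase-promoting complex, the ubiquitin ligase that marks Cdc13 and the securin Cut2 for destruction and so lets cells leave mitosis.

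Over the 5 strains, slp1, cdc25 and cdc13 fell after H2O2, while cdc2, wee1, cdr1 and plo1 were not called. The levels of wee1 and cdr1 were lower after H2O2 in STY, HA and 10M and higher in WT. Without pairing the libraries of a strain, edgeR called neither difference between strains. With that pairing it called the one at wee1 and not the one at cdr1. The paired fit called 1059 of 6176 genes for WT against STY, HA and 10M. Levels are CPM scaled by trimmed-mean factors, and each ratio is the log2 of treated over untreated. Intervals on single libraries cover counting error only, and PCR copies of a molecule are not independent of each other.

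**Figure D1:**
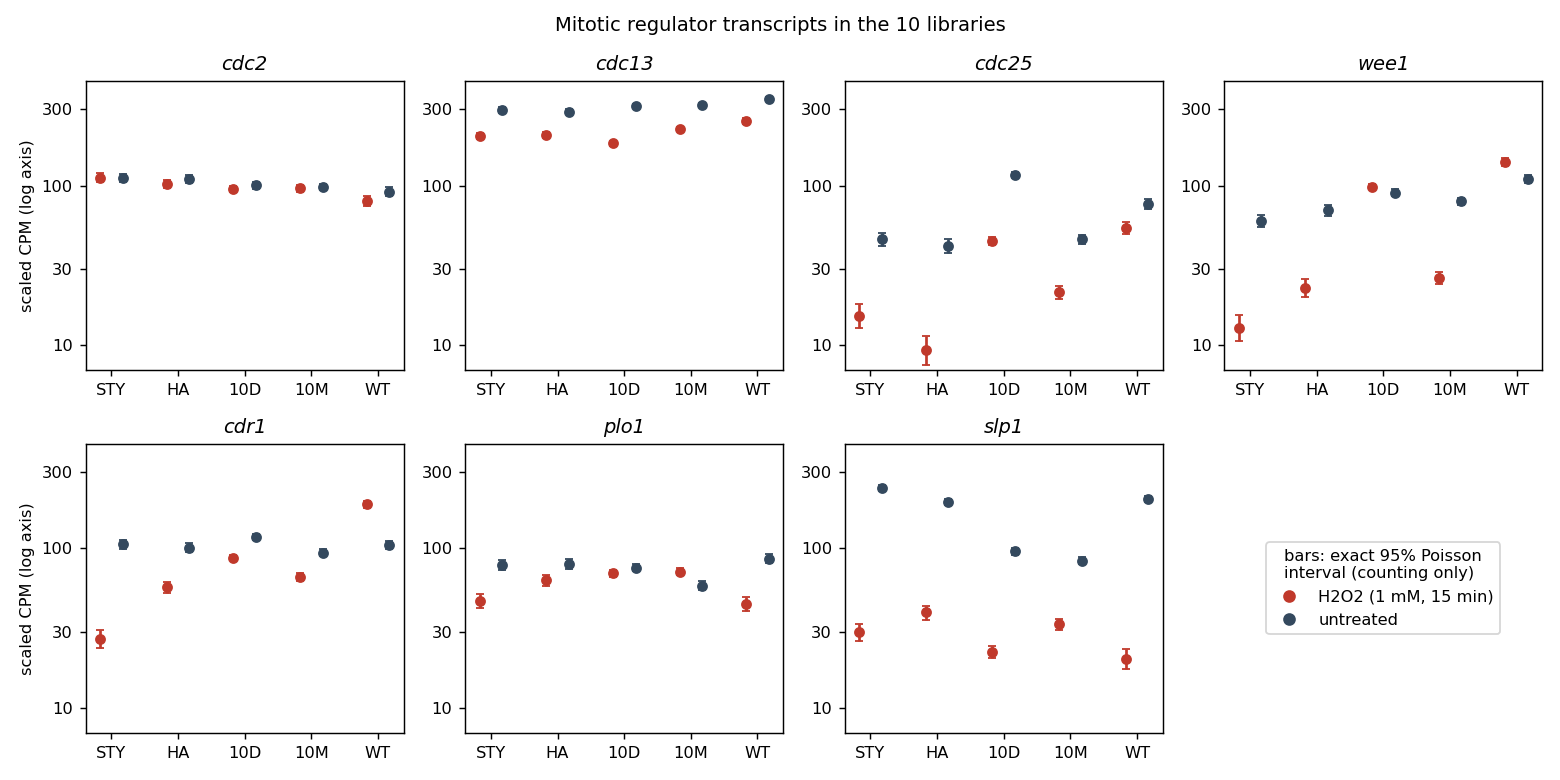
Levels of the 7 transcripts in scaled CPM on a log axis, by strain label, with the treated library to the left of the untreated one and exact 95% Poisson intervals as bars. The treated slp1 and cdc13 points lie below all untreated points of the same gene, and the treated wee1 points of STY, HA and 10M lie between 12.9 and 26.4 CPM.

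The transcript of the kinase itself had ratios close to 0 in all 5 strains. The cdc2 level was 111.8, 102.1, 94.9, 96.1 and 80.0 CPM in treated STY, HA, 10D, 10M and WT, against 111.4, 110.1, 100.3, 97.7 and 91.6 CPM in the untreated libraries of those strains. Treated and untreated groups overlapped, and the counting intervals of all 9 neighbouring pairs in the order of levels overlapped too. The ratio ran from −0.20 in WT to 0.01 in STY, and the interval of WT (−0.33 to −0.06) was the one that left out 0. In edgeR's quasi-likelihood test over the 5 strains its change was −0.07 (SE 0.0895, adjusted p = 0.63, Benjamini-Hochberg).

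Its cyclin was lower after H2O2 in each strain, most in 10D, where the interval of the ratio lay below those of the other strains. The cdc13 level was 204.7, 208.4, 183.1, 225.7 and 252.9 CPM in treated STY, HA, 10D, 10M and WT, against 296.5, 289.5, 313.1, 318.9 and 347.7 CPM untreated. Every treated library lay below every untreated one, a pattern shown by 6.66% of the 4985 genes whose mean reached 10 CPM. The treated libraries averaged 215.0 ± 26.1 CPM and the untreated ones 313.1 ± 22.7 CPM (SD over strains, n = 5 each). The ratio lay between −0.77 in 10D (interval −0.83 to −0.72) and −0.46 in WT (−0.53 to −0.38), so no strain reached 2-fold. Counting intervals overlapped in 4 of 9 neighbouring pairs.

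The phosphatase that activates Cdc2 was lower in treated than in untreated libraries of all 5 strains, and its ratio varied more. The cdc25 level was 15.3, 9.35, 45.2, 21.5 and 54.3 CPM in treated STY, HA, 10D, 10M and WT, against 46.3, 42.1, 115.9, 46.0 and 76.8 CPM untreated. The groups overlapped, since treated 10D and WT stood near or above the untreated levels of STY, HA and 10M. Its ratio was −2.15 in HA (interval −2.51 to −1.84), −1.59 in STY, −1.35 in 10D, −1.09 in 10M and −0.50 in WT (−0.66 to −0.34). It passed 2-fold in the 4 strains with a labelled deletion and not in WT. The treated HA level rested on 93 counts, the fewest of any member in any library, and 4 of 9 neighbouring levels had overlapping counting intervals.

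The inhibitory kinase Wee1 and Cdr1, the kinase that restrains it, had transcripts with ratios of both signs. The wee1 level was 12.9, 22.8, 98.6, 26.4 and 140.4 CPM in treated STY, HA, 10D, 10M and WT, against 60.0, 70.2, 89.9, 79.5 and 110.6 CPM untreated. The treated libraries spanned 10.9-fold and the untreated ones 1.84-fold, and counting intervals overlapped in 3 of 9 neighbouring pairs. Its ratio was −2.20 in STY (interval −2.52 to −1.92), −1.61 in HA and −1.58 in 10M, against 0.13 in 10D (0.04 to 0.23) and 0.34 in WT (0.23 to 0.46). Of the 4985 genes, 10.9% shared that pattern of signs, lower in STY, HA and 10M and higher in 10D and WT.

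The cdr1 level was 27.1, 56.9, 87.4, 66.2 and 188.1 CPM in treated STY, HA, 10D, 10M and WT, against 105.9, 100.8, 117.4, 93.9 and 104.6 CPM untreated. The untreated libraries spanned 1.25-fold and the treated ones 6.94-fold, with WT at the top and STY at the bottom, and 5 of 9 neighbouring pairs had overlapping counting intervals. The ratio was −1.96 in STY (interval −2.17 to −1.76), −0.82 in HA, −0.50 in 10M, −0.42 in 10D and 0.85 in WT (0.74 to 0.96). In 10D, cdr1 thus kept the sign of STY, HA and 10M, whereas wee1 had the sign of WT.

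The balance of cdc25 to wee1 reads can be taken within a library, where no scaling enters. The count ratio of cdc25 over wee1 was 1.18, 0.41, 0.459, 0.813 and 0.387 in treated STY, HA, 10D, 10M and WT, against 0.771, 0.60, 1.29, 0.578 and 0.695 untreated. It was lower after H2O2 in HA, 10D and WT, with log2 changes of −0.55, −1.49 and −0.84, and higher in STY (0.62) and 10M (0.49). The measure was chosen after the values had been seen and was not tested.

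The Polo kinase transcript had ratios within 2-fold in every strain under trimmed-mean scaling, while under total counts that of WT was −1.10. The plo1 level was 46.7, 63.3, 69.5, 71.4 and 44.8 CPM in treated STY, HA, 10D, 10M and WT, against 78.8, 79.6, 75.7, 58.3 and 85.9 CPM untreated. The groups overlapped, with treated WT and STY lowest and untreated 10M between them and treated HA, and counting intervals overlapped in 8 of 9 neighbouring pairs. Ratios were −0.94 in WT (interval −1.11 to −0.77), −0.75 in STY, −0.33 in HA and −0.12 in 10D, against 0.29 in 10M (0.17 to 0.41), so plo1 was the one member of the 7 that was higher in treated 10M.

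The activator of the anaphase-promoting complex had the lowest ratio of the 7 in STY, HA, 10D and WT, and the one after wee1 in 10M. The slp1 level was 29.8, 39.6, 22.5, 33.5 and 20.3 CPM in treated STY, HA, 10D, 10M and WT, against 238.6, 195.3, 95.7, 83.3 and 203.8 CPM untreated. The treated libraries averaged 29.1 ± 7.93 CPM and the untreated ones 163.3 ± 69.5 CPM (SD over strains, n = 5 each). Here too every treated library lay below every untreated one, as in 6.66% of the 4985 genes. The ratio was −3.32 in WT (interval −3.55 to −3.11), −2.99 in STY, −2.30 in HA, −2.08 in 10D and −1.31 in 10M (−1.45 to −1.18), which is a 9.98-fold lower level in treated WT and a 2.48-fold lower one in treated 10M. In STY 0.08% of the 4985 genes had a lower ratio, in HA 0.52%, in WT 0.6%, in 10M 1.18% and in 10D 1.77%. Counting intervals overlapped in 4 of 9 neighbouring levels.

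The spread of slp1 between strains was wider in the untreated cultures. Treated libraries spanned 1.95-fold and untreated ones 2.86-fold, with 10D and 10M below the other strains. A list of 16 other genes that peak around M phase had a summed level of 1215 and 1112 CPM in untreated 10D and 10M, against 1436 CPM in STY, 1378 CPM in HA and 1523 CPM in WT. Single genes of the list differed in direction. Of the 16, 11 were lower in untreated 10D than in STY, HA and 10M together, and edgeR called 0. The level of mid1 was 173.5 and 168.7 CPM in untreated 10D and 10M, against 138.2 CPM in STY, 144.6 CPM in HA and 174.1 CPM in WT. The 10D and 10M libraries were also the deeper ones, and the part of depth in the slp1 difference was not tested. In whole cultures, fewer cells in mitosis and less RNA per mitotic cell cannot be told apart.

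Counted by strain, the members at least 2-fold lower after H2O2 were 4 of 7 in STY, where 6.76% of the 4985 genes were, 3 in HA (7.58%), 2 in 10D (7.26%), 3 in 10M (3.31%) and 1 in WT (6.48%). The median ratio of the members was −1.59 in STY, −0.82 in HA, −0.42 in 10D, −0.50 in 10M and −0.46 in WT, beside medians of −0.03 to −0.09 over all genes. The member past 2-fold in WT was slp1, those in 10D were slp1 and cdc25, and those in HA and 10M were slp1, cdc25 and wee1, to which STY added cdr1.

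**Figure D2:**
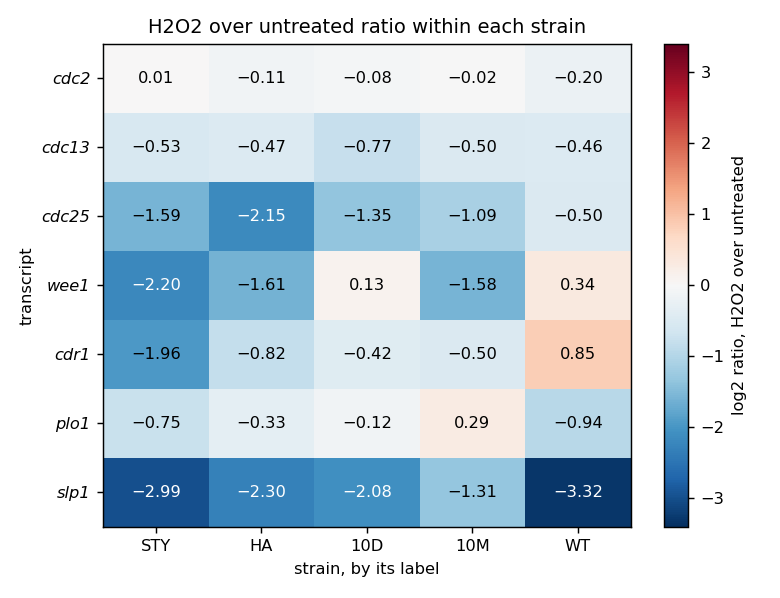
Log2 ratio of treated over untreated scaled CPM for each transcript (rows) in each strain (columns), with blue for lower and red for higher after H2O2. The slp1 row is lower throughout, from −3.32 in WT to −1.31 in 10M, and the wee1 row is lower in STY, HA and 10M and not in 10D and WT.

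The response over the 5 strains was tested by edgeR's quasi-likelihood test, with strain as a block and p-values adjusted over 5909 genes by the Benjamini-Hochberg method. Of the 7 members 3 fell and 0 rose, where 2.71% of all tested genes fell and 1.93% rose. The transcript of slp1 fell by 2.39 (SE 0.304, adjusted p = 0.0321, lower in 5 of 5 strains). That of cdc25 fell by 1.32 (SE 0.237, adjusted p = 0.0413, 5 of 5 strains), and that of cdc13 fell by 0.54 (SE 0.105, adjusted p = 0.0447, 5 of 5 strains). Of the 4985 genes, 17.7% were lower in all 5 strains. Of the 274 called genes 114 rose and 160 fell, against 102 and 429 under total counts and 631 and 475 by DESeq2, and the 3 members kept their calls and direction in both. The call of cdc13 was lost under DESeq2-style size factors (adjusted p = 0.0503 by edgeR), among genes whose mean reached 10 CPM (adjusted p = 0.0518) and without noncoding genes (adjusted p = 0.0588), and that of cdc25 without the strain block (adjusted p = 0.178). Total counts gave a median of −0.15 over all genes, against −0.03.

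Of the members not called, cdc2 is given above. The change was −0.97 for wee1 (SE 0.427, adjusted p = 0.185 by edgeR), −0.56 for cdr1 (SE 0.368, adjusted p = 0.347) and −0.36 for plo1 (SE 0.191, adjusted p = 0.257). All 3 calls were lost when any one strain was left out, at 3 residual degrees of freedom in place of 4, while the changes stayed at −2.66 to −2.15 for slp1, −1.52 to −1.10 for cdc25 and −0.55 to −0.48 for cdc13. Without WT, STY, HA, 10D or 10M the adjusted p by edgeR was 0.0514, 0.0602, 0.145, 0.0569 and 0.0959 for slp1, 0.0514, 0.076, 0.145, 0.0872 and 0.132 for cdc25, and 0.0741, 0.0812, 0.171, 0.0894 and 0.165 for cdc13, while 0 to 3 genes of the whole table passed. With WT and STY alone, the strains whose sty1 counts follow their labels and a choice made after seeing the data, slp1 fell by 3.16 (adjusted p = 0.00512 by edgeR, 1 residual degree of freedom), and cdc25 (−1.03, adjusted p = 0.496) and cdc13 (−0.49, adjusted p = 0.999) were not called.

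Whether responses differed between strains was tested against a pool of STY, HA and 10M, whose spread was the error of the fit. WT and 10D were each a lone pair, assumed to vary as the pooled strains did, and HA and 10M, labelled as deletions, held more sty1 reads than STY. The atf1 level differed within the pool too, at 69.3, 555.6 and 357.9 CPM in untreated STY, HA and 10M. The response of wee1 was higher in WT than in the pool by 2.08 (SE 0.501, adjusted p = 0.0605 by edgeR) and higher in 10D than in the pool by 1.87 (SE 0.497, adjusted p = 0.0802), so neither was called. With strain as a block, which pairs the treated and untreated library of each strain, both differences passed, at 2.13 (adjusted p = 0.0088 by edgeR) and 1.91 (adjusted p = 0.0141). That fit had 2 residual degrees of freedom and called 1059 of 6176 genes for WT and 853 for 10D. DESeq2 also called them, with adjusted p = 0.00242 and adjusted p = 0.00768.

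The response of cdr1 was higher in WT than in the pool by 1.84 (SE 0.598, adjusted p = 0.112 by edgeR, and adjusted p = 0.0247 by DESeq2), and higher in 10D by 0.56 (SE 0.589, adjusted p = 0.596 by edgeR). For cdc25 the difference was 1.02 in WT (SE 0.526, adjusted p = 0.26 by edgeR) and 0.16 in 10D (SE 0.519). For slp1 it was −1.004 in WT (SE 0.727, adjusted p = 0.414 by edgeR) and 0.23 in 10D (SE 0.714). Without the strain block, edgeR called 0 of 7 members in either contrast, against 5.44% of 6176 genes for WT (214 higher and 122 lower, or 101 and 95 under total counts) and 4.87% for 10D. Of the members, wee1 (both contrasts) and cdr1 (WT) had an unadjusted p under 0.05, and with strain as a block the calls over all genes were 1059 instead of 336 for WT and 853 instead of 301 for 10D.

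**Figure D3:**
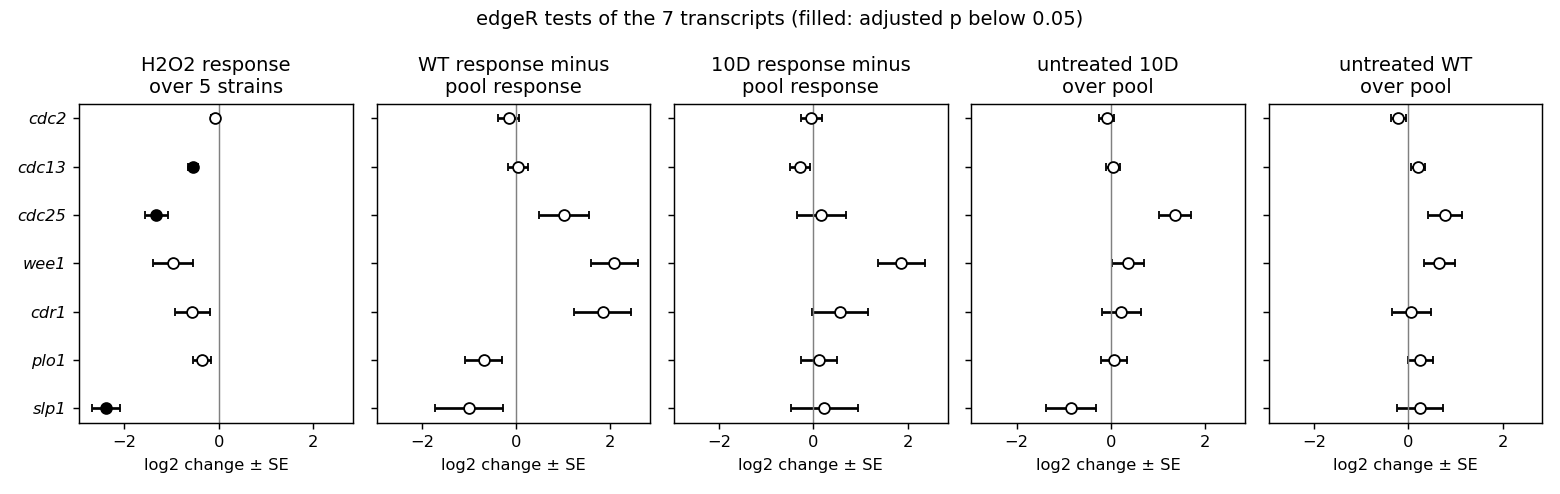
Log2 changes of the 7 transcripts in the 5 edgeR contrasts, with SE bars, filled where the adjusted p was below 0.05. The filled points are slp1, cdc25 and cdc13 in the response over 5 strains, and the wee1 differences of 2.08 in WT and 1.87 in 10D are open.

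Before treatment, cdc25 stood highest in 10D. Its untreated level of 115.9 CPM there was above those of STY, HA and 10M by 1.37 on the log2 scale (SE 0.343, adjusted p = 0.105 by edgeR, and adjusted p = 0.015 by DESeq2). In untreated WT it was higher than in the pool by 0.78 (SE 0.354, adjusted p = 0.744 by edgeR). For slp1 the untreated difference was −0.85 in 10D (SE 0.526, adjusted p = 0.505 by edgeR) and 0.24 in WT (SE 0.492). None of the 7 members was called by edgeR in untreated 10D or WT, where 2.67% and 0.0648% of genes were, and 1 member, cdc25 in 10D, had an unadjusted p under 0.05, the one that DESeq2 also called.

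The other genes of the mitotic network were taken as 5 lists with 73 different non-members, all measured. Over the 5 strains 17 fell, 1 rose and 66 had a negative change by edgeR, where 2.71% of all tested genes fell and 1.93% rose. Their median was −0.48, beside −0.03 over all genes tested. Within single strains, from 53.24% (STY) to 57.21% (10M) of the 4985 genes whose mean reached 10 CPM were lower after H2O2. The members and lists were chosen with earlier results of these data known, so neither share is an independent comparison with all genes. As for the members, no call was left after leaving out any one strain: by edgeR 0 fell when WT, STY, HA, 10D or 10M was left out, with 32 to 39 at an unadjusted p under 0.05 and medians of −0.51 to −0.46, and 1 fell with WT and STY alone. The number that fell was 27 under total counts and 33 by DESeq2, where 429 and 475 of all 5909 genes fell, against 160 in the edgeR fit above. It was 11 among genes whose mean reached 10 CPM and 9 without noncoding genes, where 121 and 111 of all genes fell.

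**Figure D4:**
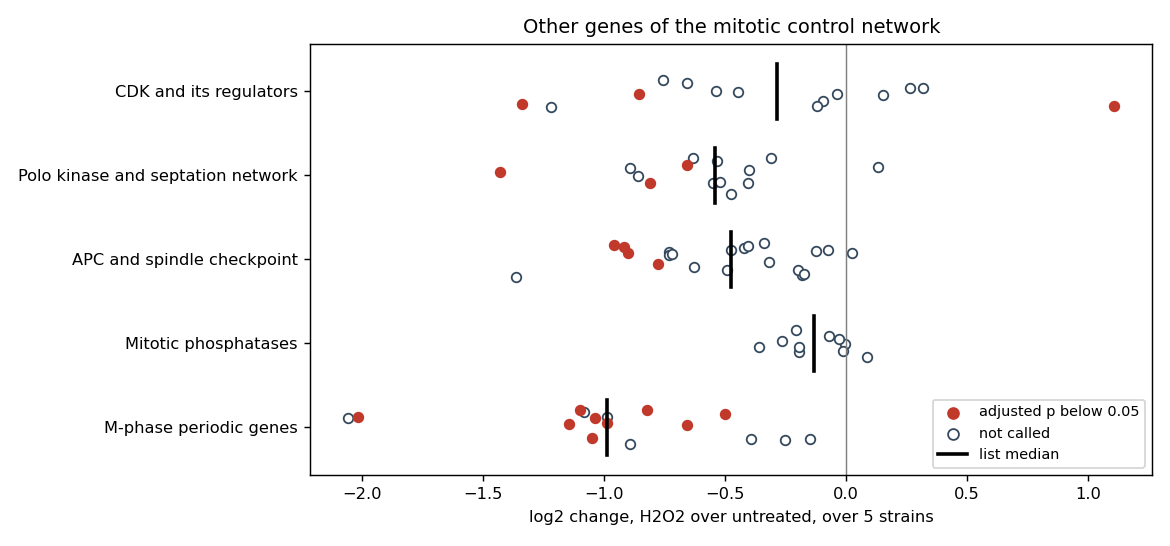
Log2 change over 5 strains for the non-members of 5 lists, one point per gene, filled red where the adjusted p was below 0.05, with the list median as a black bar. The median is −0.99 for M-phase periodic genes and −0.13 for mitotic phosphatases, and pyp3 is the red point right of 0.

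Among 14 other cyclin-dependent kinase genes and regulators, 1 rose and 2 fell, with a median of −0.28. The tyrosine phosphatase gene pyp3, whose product acts beside Cdc25 on Cdc2, rose by 1.11 (SE 0.147, adjusted p = 0.0321 by edgeR), with ratios of 0.77 in STY, 1.46 in HA, 0.75 in 10D, 1.39 in 10M and 1.12 in WT. The cyclin gene cig2 and the inhibitor gene rum1, both acting around the start of S phase, fell by 1.34 and 0.86. Values of 2 further genes were looked at for their known roles after the data had been seen. The gene mik1, for a kinase that acts with Wee1 on Cdc2, had a change of −1.22 (SE 0.263, adjusted p = 0.0529 by edgeR), and srk1, for a Sty1-linked kinase that acts on Cdc25, had ratios of 0.26 in STY, 0.16 in HA, −1.62 in 10D, −0.03 in 10M and 2.78 in WT.

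Of 14 other genes of the Polo kinase and septation network, 3 fell and 0 rose, with a median of −0.54. They were etd1, which activates the septation pathway (−1.43, SE 0.211, adjusted p = 0.0321 by edgeR), mob1, the partner of the kinase Sid2 (−0.81), and fin1, a NIMA-related kinase (−0.66). Of 21 other genes of the anaphase-promoting complex and spindle checkpoint, 4 fell and 0 rose, with a median of −0.47. These were the checkpoint kinase gene mph1 (−0.96, SE 0.144), and apc15 (−0.91), cut20 (−0.90) and apc2 (−0.77), which encode subunits of the complex that Slp1 activates. Their decreases were smaller than that of slp1, and no test of that difference was made.

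In the response over 5 strains, the mitotic phosphatase list, with 10 genes, had 0 calls by edgeR and by DESeq2 and a median of −0.13. It had 0 genes at an unadjusted p under 0.05, or 3 under total counts. Its largest changes were those of the Cdc14-family phosphatase gene clp1 (−0.36, SE 0.189) and igo1 (−0.27, SE 0.212), whose product restrains the phosphatase PP2A. A change over 5 strains can be small where strains differ in sign. The list's gene ppk18 had ratios from −1.13 in STY to 1.93 in 10D, and edgeR called its response against the pool in WT and 10D. The M-phase list of 16 other genes had 9 that fell and 0 that rose, with a median of −0.99. In it chs2 fell by 2.02 (SE 0.238, adjusted p = 0.0321 by edgeR), the kinesin gene klp8 by 1.15, and cdc15, a scaffold of the contractile ring, by 1.05. Its median ratio was −1.26 in STY, −1.07 in HA, −0.55 in 10D, −0.56 in 10M and −1.09 in WT, with 10D and 10M closest to 0, as at slp1.

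The genes whose levels differed least from each member over the 10 libraries were ranked by the root mean square difference of centred log2 levels. For a member that varied little, a small difference can mean only that the other gene varied little too. The lowest values for wee1 were those of ecl2 (0.231), scm3 (0.305) and tna1 (0.346), against a median of 1.09 over all genes. The ratios of ecl2 were −2.23 in STY, −1.60 in HA, 0.21 in 10D, −1.39 in 10M and 0.35 in WT. For cdr1 they were res2, a subunit of the G1-S factor MBF (0.223), sec74 (0.234) and cut2, the securin gene (0.252). For slp1 they were adg2 (0.373), gas1, a wall glucanosyltransferase gene (0.433), and msa1 (0.463).

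For cdc25 the nearest were map4 (0.29), mug86 (0.348) and SPBP19A11.02c (0.358). For plo1 they were SPBC17A3.06 (0.107), mid2, a septation gene (0.12), and mis6, a kinetochore gene (0.149). The nearest to cdc13 were oma1 (0.107), dsc4 (0.107) and kap114 (0.122), and to cdc2 they were ctf1 (0.0513), ret3 (0.0587) and noc202 (0.0632). None of these genes is a member. Among the members themselves the closest pairs were cdc2 with plo1 (0.298) and, of those that varied more, wee1 with cdr1 (0.506) and cdc25 with wee1 (0.561), and the farthest was wee1 with slp1 (1.45). The root mean square of cdc2 about its own mean was 0.14 and that of plo1 0.31. Their small difference is thus no sign of a shared pattern.

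In the reference annotation, 6 of the 7 genes overlap a gene on the other strand, wee1 being the exception, and the strand setting of the counts is not given in the sources used here. In the count table the partner of slp1, SPNCRNA.703, was at 5.40 to 13.3 CPM by library totals, that of cdc2, SPNCRNA.1438, at 0.351 to 5.17 CPM, and that of cdc13, the coding gene dsh1, at 57.3 to 75.6 CPM. If the counting ignored strand, reads within such an overlap could not be assigned to one gene by strand. How such reads were counted is not given, and their part in the member levels was not tested.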

How the data were processed

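The table holds raw read counts per gene, deposited by the authors with 1 column per library. The submitters' processing notes name FastQC, TopHat2 2.1.1 and HTSeq; the genome build, annotation, strand setting and filters are not given in the sources used here. Columns were joined to samples by the names in the sample descriptions. Of 7017 identifiers, 6843 matched names of the ASM294v3 reference, which supplied symbols and overlapping genes only. Its coordinates and strands served only to find overlapping genes. No sequence was read from it, and promoter motifs were not analysed here. Apart from the count ratio of cdc25 over wee1, levels were not compared between genes.

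Tests used edgeR 4.0.16 in R 4.3.3 (TMM factors, filterByExpr, quasi-likelihood F test, Benjamini-Hochberg adjustment over all genes tested, threshold 0.05), on treatment with strain as a block (5909 genes) or on 6 cell means for WT, 10D and the pool of STY, HA and 10M, each treated and untreated (6176 genes), both with 4 residual degrees of freedom. Treated and untreated libraries of one strain are paired by that strain, per the labels. The SE was derived from each change and its F statistic. Nothing in the labels says that libraries are separate experiments, so p-values measure the spread between these libraries. Ratios within a strain used a prior count of 2 over 4985 genes whose mean reached 10 CPM, with exact binomial 95% intervals. DESeq2 1.42.0, other scalings, filters and leaving out strains were alternatives. With strain as a block, the fit against the pool had 2 residual degrees of freedom. Fits were tested on simulated data with known changes. The simulated strains had no spread in response of their own, so that test cannot check the p-values given here. Genes named were the members, the 3 nearest genes of each, and up to 4 called genes of each list (or the 2 largest changes). One gene that this rule names is not reported here. The members and lists were chosen with earlier results of these data known.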

Additional observations from a re-analysis of the deposited data

Results flagged for a closer look

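Responses differed between strains by edgeR's interaction test at 3 of the 73 other genes of the mitotic lists, named after their values were seen. They were 3 for 10D and 2 for WT, where 4.87% and 5.44% of all genes were called, so the lists' shares were no higher than those of all genes. The Greatwall-family kinase gene ppk18 had a response higher than the pool's by 2.84 in 10D (SE 0.249, adjusted p = 0.00667) and by 1.74 in WT (SE 0.244, adjusted p = 0.0204). Its ratios were −1.13 in STY, −0.98 in HA, 1.93 in 10D, −0.65 in 10M and 0.82 in WT. The gene dma1, for a ubiquitin ligase that restrains septation, had a response higher by 1.21 in 10D (SE 0.262, adjusted p = 0.0496) and by 1.66 in WT (SE 0.264, adjusted p = 0.0242). The kinase gene cdr2, whose product acts beside Cdr1 on Wee1, had a response higher by 1.04 in 10D (SE 0.225, adjusted p = 0.0496), with a ratio of 0.62 there against −0.56 to −0.27 in STY, HA and 10M. All of these calls were lost without HA, where 0 genes of the whole table passed either contrast, and without STY, where 3 genes passed for 10D and 0 for WT. In 10D those of cdr2 and dma1 were also lost under total counts (adjusted p = 0.102 and adjusted p = 0.0868 by edgeR) and with no filter (adjusted p = 0.051 and adjusted p = 0.0532), and that of dma1 without WT (adjusted p = 0.0509). In WT that of dma1 was lost under total counts (adjusted p = 0.0519).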

How the results depend on the processing

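The lowest count of a member was 93, and no strain had a repeat culture, so the spread between repeats is unknown. The 3 calls over 5 strains kept their direction under every alternative run, and slp1 kept its call in all but the fits without one strain. The call of cdc13 was also lost under other size factors or filters, and that of cdc25 without the strain block (adjusted p = 0.178 by edgeR). With WT and STY alone, an alternative added after seeing the data, 20 genes passed, and slp1 was the one of the 3 that remained called. Beyond this and wee1 in both response contrasts, the replicate block of strains changed no other call of a member.

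Genes called over 5 strains were 531 under total counts, 1106 by DESeq2, 147 without noncoding genes and 0 to 3 without one strain. For the WT response against the pool they were 196 under total counts, 807 by DESeq2, 1059 with strain as a replicate block and 0 to 650 without one strain. For the 10D response they were 744 by DESeq2, 853 with the replicate block and 0 to 485 without one strain. In untreated libraries DESeq2 called 66 genes for WT and 402 for 10D, and leaving out one strain gave 0 to 42 and 25 to 430. Genes past the fold in WT, STY, HA, 10D and 10M were 475, 205, 260, 446 and 126 at 50 CPM, 1324, 728, 1102, 1176 and 779 with no filter, and 253, 65, 108, 192 and 50 at 4-fold.

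Sign changes concerned differences that were not called. The WT response of cdc13 against the pool became −0.0134 under total counts, −0.0153 at a mean of 10 CPM, −0.0163 without noncoding genes and −0.033 to 0.0432 without one strain. The 10D response of cdc2 became 0.0389 under total counts, and without one strain those of cdc25, plo1 and slp1 ran from −0.0563 to 0.484, from −0.11 to 0.396 and from −0.177 to 0.546. In untreated 10D, cdc13 became −0.0576 under total counts, −0.0136 at a mean of 10 CPM and −0.0207 without noncoding genes, and plo1 −0.0361 under total counts, −0.006 without noncoding genes and −0.0717 to 0.137 without one strain. In untreated WT, slp1 ran from −0.0906 to 0.579 without one strain. The cause of these changes was not tested.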
